A study of Mus musculus with 8 samples.

Results

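The 6 genes described here encode a peptide family and its receptors. They were chosen by name from the 31053 genes in the count files, and all 6 were present: Calca, Calcrl, Ramp1, Ramp2, Ramp3 and Adm. Their UMI counts were read in all 8 single-cell libraries of mouse dorsal skin. Each library came from biopsies of female BALB/c mice aged 14 to 16 weeks. In 4 libraries the mice had been treated with PBMCsec, the secretome of irradiated human peripheral blood mononuclear cells, and in 4 with vehicle. The study injected these agents into scars, to ask how the secretome changes existing scar tissue. The labels give neither wounding, nor the day of sampling, nor which control solution each vehicle mouse received, so all vehicle libraries formed 1 group. In the paper, injected scars were sampled either directly after the injections or after a further interval without treatment, and other mice were treated topically. Each group here may therefore mix sampling times, which cannot be told from the labels. Nothing in the labels says whether a library held 1 mouse or pooled mice, and p-values measure the spread between these libraries.

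Calcitonin gene-related peptide (CGRP) is a neuropeptide best known from sensory nerve endings of the skin, where its release widens small vessels and modulates immune cells. Its receptor is a pair of proteins: the G protein-coupled receptor encoded by Calcrl and a single-span partner, a receptor activity-modifying protein (RAMP). The partner sets the ligand. With RAMP1 the pair binds CGRP, whereas with RAMP2 or RAMP3 it binds adrenomedullin, the vasoactive peptide encoded by Adm. The receptor couples to Gs, adenylyl cyclase and cAMP. The nerve cell bodies that supply the skin lie in the dorsal root ganglia and not in a skin biopsy, so nerve-derived Calca transcripts are largely outside this assay.

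In the GENCODE M21 annotation of GRCm38 (mm10), Calca lies on chromosome 7 from 114631478 to 114636357 on the minus strand. It has 7 annotated transcripts with alternative last exons. Transcript Calca-201 has 5 exons and ends in an exon at 114631478 to 114631905, the form that encodes the CGRP precursor. Transcript Calca-202 has 4 exons and ends in an exon at 114633293 to 114633785, the form that encodes the calcitonin precursor. The last exons share 0 bases and are 1387 bases apart, but the deposited counts are per gene, and the peptides cannot be told apart in them. Calcrl lies on chromosome 2 from 84330626 to 84425411 (minus strand) and Ramp1 on chromosome 1 from 91179822 to 91225196 (plus strand). Ramp2 lies on chromosome 11 from 101246028 to 101259546 and Ramp3 on the same chromosome from 6658521 to 6677475, both on the plus strand. Adm lies on chromosome 7 from 110627661 to 110629820 on the plus strand. The spans of Ramp2, Ramp3 and Adm overlap other annotated genes: Vps25 on the same strand, and the pseudogene Gm11978 and the antisense gene Gm28863 on the opposite strand, respectively.

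Calca and Ramp3 shared their leading cell cluster in these data, and for this reason the bases just upstream of their transcription starts are shown. They come from RefSeq promoter windows of GRCm38.p6, read 5′ to 3′ on the strand of the gene and cut at the first annotated transcript start. Of the 6 genes, 5 had an entry. The letters searched on both strands were TGACGTCA, the palindromic cAMP response element (CRE), its core TGACG, and TGANTCA, the AP-1 element. Capitals mark the TGACG match.
Calca, chr7:114636358-114636607, minus strand: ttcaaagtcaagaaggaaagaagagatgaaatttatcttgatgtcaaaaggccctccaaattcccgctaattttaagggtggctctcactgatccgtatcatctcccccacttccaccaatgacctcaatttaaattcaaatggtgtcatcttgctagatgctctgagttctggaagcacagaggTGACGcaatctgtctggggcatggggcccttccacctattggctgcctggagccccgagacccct
Ramp3, chr11:6658283-6658520, plus strand: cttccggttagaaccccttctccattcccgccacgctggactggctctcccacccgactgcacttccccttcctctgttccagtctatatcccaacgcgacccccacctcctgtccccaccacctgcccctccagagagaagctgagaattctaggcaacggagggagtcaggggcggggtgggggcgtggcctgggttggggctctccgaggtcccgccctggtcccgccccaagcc
The Calca window held 1 TGACG match, which begins 65 bases before the transcription start, and the Ramp3 window held none. Of the 32817 promoter windows of 250 bases before a start, 17.7% held TGACG, 1.55% held TGACGTCA and 6.75% held TGANTCA. The longer elements matched in 0 of the 5 windows available for the 6 genes. A match describes the letters only.

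The cells were kept by the limits of the study on genes, UMIs and mitochondrial counts, which left 6150 of 26231 barcodes, between 151 and 1659 per library. The libraries held between 14753926 and 37880651 UMIs in total, and kept cells had median UMI counts between 6156 and 9521. Libraries shared at most 10 barcodes in a pair, of which at most 2 were kept cells. Clustering gave 34 clusters, and 32 were named from marker genes: 2651 keratinocytes and hair follicle cells (KCs), 1605 fibroblasts (FBs), 836 lymphoid cells (called TCs, as most carried T cell markers), 519 dendritic cells, Langerhans cells and macrophages (DCs and macrophages), 117 neutrophils, 85 endothelial cells (ECs), 38 smooth muscle cells and pericytes, and 27 mast cells. Levels are given as CPM (UMIs scaled to 1000000 summed UMIs of the class, leaving out Gm42418, Gm17056 and Gm26917), as mean ± SD over libraries with at least 10 cells of that class. The genes were chosen with differences between cells of these data known, so levels by class are a description, without a test. UMIs are counted at the 3′ end and are not scaled to length, and levels are therefore compared between cells for the same gene, not between genes.

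**Figure D1:**
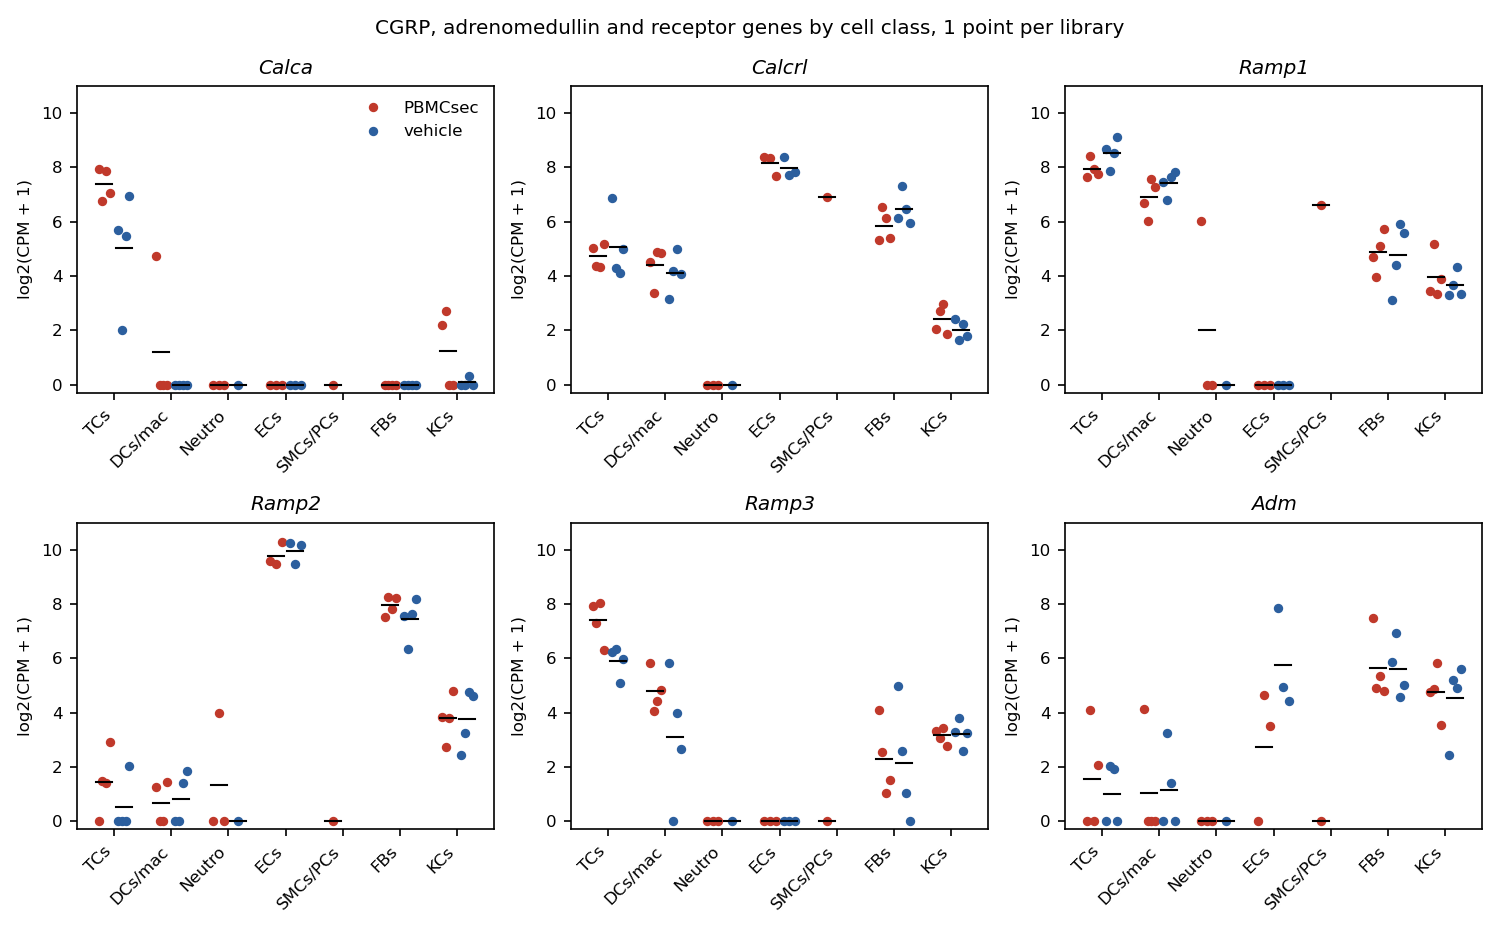
Levels of the 6 genes by cell class. Each point is 1 library with at least 10 cells of the class (red, PBMCsec; blue, vehicle), the y axis is log2(CPM + 1) and the black line is the mean of the points. Calca points lie above 0 in the lymphoid cells of all 8 libraries and at 0 in ECs and FBs, whereas Ramp2 is highest in ECs and next in FBs.

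Calca, the peptide gene, was nearly confined to the lymphoid cells of these libraries. Of its 488 UMIs in kept cells, 455 lay in TCs, and 66 of 836 TCs held at least 1 (7.89%, 95% exact binomial interval 6.16 to 9.93%). The interval covers counting error only. The level was 117 ± 86.9 CPM in TCs (n = 8), and TCs exceeded DCs and macrophages in 8 of 8 libraries. No Calca UMI was found in 1605 FBs, which allows a share of cells with a UMI of up to 0.187%. None was found in 85 ECs, which allows up to 3.53%, nor in 38 smooth muscle cells and pericytes, 27 mast cells and 117 neutrophils. The median depth of FBs (8652 UMIs) was above that of TCs (3364.5 UMIs). With the mitochondrial limit raised to 20% and cells classed from marker UMIs alone, 20 Calca UMIs appeared in 6 of 4039 FBs, beside 620 in 96 of 1437 TCs (6.68%).

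The remaining 33 Calca UMIs came from 5 cells. A single cell of the DCs and macrophages held 19, and the same cell held UMIs of all 7 markers of alpha-beta T cells and was among the 5% of cells with the highest doublet score. The other 14 lay in 4 KCs of 2651, of which 1 held a T cell marker. Of the 66 Calca-positive TCs, 59 held at least 1 marker of alpha-beta T cells (89.4%), as did 94.8% of the TCs without Calca. Genes of sensory neurons were searched for in the same cells. Prph, Scn10a, Scn9a, Trpv1 and Tac1 had 0 UMIs in the 71 Calca-positive cells, but they had only 2, 1, 0, 8 and 27 UMIs in all 6150 kept cells, so these zeros say nothing of the origin of the cells. This list was chosen after the Calca values were seen.

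The Calca signal was concentrated in few cells. Of the 66 positive TCs, 21 held 1 UMI, 14 held 2 to 4 and 31 held 5 or more, with a maximum of 37. The 10 cells with most Calca carried 51.2% of the UMIs in TCs. When each cell was thinned to 1000 UMIs, which left out 8 TCs, the share of positive TCs was 4.11% (2.86 to 5.69%).

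Within the lymphoid cells, Calca was led by cluster 15, a group of 208 cells present in all 8 libraries. These cells carried all 7 alpha-beta T cell markers and all 8 markers listed for group 2 innate lymphoid cells (ILC2), the tissue lymphocytes that make type 2 cytokines without a T cell receptor. They also carried 4 of 6 regulatory T cell markers (Ctla4, Il2ra, Icos and Tnfrsf4). Their leading genes were Areg, Il13, Csf2, Il5 and Il10, the genes of amphiregulin and of cytokines, and Ctla4 was among the first 10. Cluster 15 held 374 of the 488 Calca UMIs (76.6%) at 395 CPM, and 21.2% of its cells were positive (15.8 to 27.3%). Calca was itself among the 10 leading genes of this cluster, so its level there is a description of the grouping. In the other lymphoid clusters Calca reached 63.9 CPM in cluster 25, which carried 5 of 6 gamma-delta T cell markers and Il17a, and 41.2 CPM in cluster 2, the CD4-expressing T cells. Cluster 22 carried 6 of 7 alpha-beta T cell markers and 5 of 6 markers of natural killer (NK) cells. It held a single Calca UMI in 100 cells, and cluster 29, which carried gamma-delta markers, held none in 54.

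The border of cluster 15 depended on rounding in the computation. With the arithmetic kernel Sandybridge in place of the one used, and nothing else altered, its cells fell into clusters of 167 and 40 cells. Calca was then at 465.5 CPM in the larger and 66.7 CPM in the smaller, and Ramp3 at 477 and 36.4 CPM, whereas Ramp1 was at 462 CPM in the larger and 1147 CPM in the smaller and Calcrl at 42.3 and 225 CPM. With the kernel Nehalem, 119 of the 208 cells lay in a cluster of 211 cells (Calca 311 CPM) and 89 in another (Calca 265.5 CPM). A second random seed returned the same 208 cells. The lymphoid class as a whole held 836 or 837 cells in each of these runs, and 835 or 836 of them were shared. Values for cluster 15 and for the lymphoid cells outside it describe 1 of several partitions.

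Across the 34 clusters, the genes most like Calca by Pearson correlation of log2(CPM + 10), among 9066 genes, were Pcsk1 (r = 0.948), Pdcd1 (r = 0.940) and Il5 (r = 0.930). Pcsk1 encodes a prohormone convertase, an enzyme that cleaves peptide precursors, Pdcd1 the inhibitory receptor PD-1 and Il5 the eosinophil growth factor interleukin-5. All 3 were highest in cluster 15, Pcsk1 at 128 CPM. Clusters come from the same 8 libraries and share their depth, and these correlations carry no test.

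**Figure D2:**
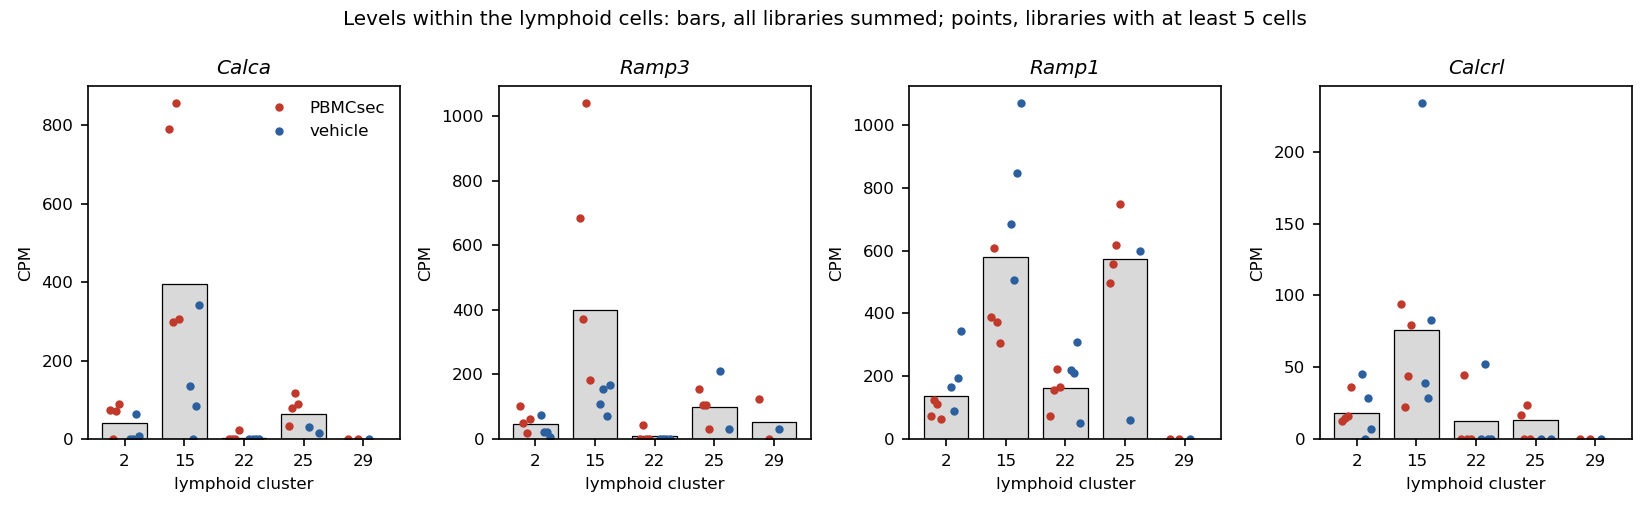
Calca, Ramp3, Ramp1 and Calcrl within the 5 lymphoid clusters. Grey bars are CPM over all libraries summed, points are libraries with at least 5 cells of the cluster (red, PBMCsec; blue, vehicle), and the y axes differ. All 4 genes are highest in cluster 15, at 395 CPM for Calca, 399 CPM for Ramp3, 581 CPM for Ramp1 and 76.0 CPM for Calcrl, and cluster 25 follows closely for Ramp1 (572 CPM).

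Ramp3, the partner that makes the receptor pair respond to adrenomedullin, had the same leading cluster. Its level was 124 ± 87.5 CPM in TCs and 24.4 ± 21.2 CPM in DCs and macrophages, and TCs were higher in 8 of 8 libraries. Cluster 15 reached 399 CPM and carried 44.7% of all Ramp3 UMIs, with 40.4% of its cells positive (33.7 to 47.4%). Outside the lymphoid cells the next level was 107 CPM in FB cluster 27, led by Slc26a7, Crabp1 and Wif1, but 69.4% of the Ramp3 UMIs of those cells came from 1 library. In KCs the level was low in every library, at 8.41 ± 2.44 CPM (range 4.92 to 12.9 CPM), but uneven between KC clusters. Cluster 4 reached 23.4 CPM with 22.5% of 307 cells positive and cluster 12 reached 17.4 CPM with 17.2% of 221, whereas no Ramp3 UMI was found in clusters 16 and 23. No Ramp3 UMI was found in the 85 ECs. Calca was the gene most like Ramp3 across clusters (r = 0.775), ahead of Dusp4 (r = 0.767), a MAP kinase phosphatase gene, and Tob2 (r = 0.766).

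Calca and Ramp3 were often found in the same cells. In TCs, 40.9% of the 66 Calca-positive cells held a Ramp3 UMI (29.0 to 53.7%), against 15.1% of the other 770 (12.6 to 17.8%). Within cluster 15 alone the shares were 56.8% of 44 cells (41.0 to 71.7%) and 36.0% of 164 cells (28.6 to 43.8%), and these intervals overlap. A Ramp1 UMI was held by 66.7% of the Calca-positive TCs (54.0 to 77.8%) and 37.3% of the others (33.8 to 40.8%), and in cluster 15 by 70.5% (54.8 to 83.2%) and 63.4% (55.5 to 70.8%). Calca-positive cells were deeper, with medians of 3842 and 3338.5 UMIs in TCs and of 3821 and 3284.5 in cluster 15. The shares pool the cells of all libraries, and Calca and Ramp3 both had higher mean levels in TCs of the PBMCsec libraries. The parts of depth, library and treatment in these shares were not tested.

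Ramp1, the partner required for CGRP binding, was highest in lymphoid cells, mast cells, mural cells and part of the myeloid cells. Neutrophils held 3 Ramp1 UMIs in 117 cells (2.56% of cells, median depth 1537 UMIs). Its level was 320 ± 123 CPM in TCs and 152 ± 54.8 CPM in DCs and macrophages, higher in TCs in 8 of 8 libraries although the ranges overlapped (200 to 557 CPM and 65.0 to 226 CPM). Of TCs, 39.6% held a Ramp1 UMI (36.3 to 43.0%), and of DCs and macrophages 44.1% (39.8 to 48.5%). In the lymphoid cells it was spread more widely than Calca. Cluster 15 reached 581 CPM with 64.9% of 208 cells positive (58.0 to 71.4%), and the gamma-delta cluster 25 reached 572 CPM with 77.8% of 90 cells (67.8 to 85.9%). Cluster 22, with T and NK cell markers, was at 162 CPM and the CD4-expressing cluster 2 at 138 CPM. No Ramp1 UMI was found in the 54 cells of cluster 29.

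Among the myeloid cells, the Cd207-positive Langerhans cell cluster 19 led with 339 CPM and 72.6% of 124 cells positive (63.8 to 80.2%). The 27 mast cells reached 481 CPM with 44.4% positive (25.5 to 64.7%), and the smooth muscle cells and pericytes 251 CPM with 60.5% of 38 cells (43.4 to 76.0%). Both rest on few cells. In FBs the level was 32.5 ± 18.8 CPM, but FB cluster 20, led by Ednrb, Col11a1 and Lrrc15, reached 331 CPM with 72.5% of 120 cells positive. ECs held no Ramp1 UMI in 85 cells. The genes most like Ramp1 across clusters were Arhgap15 (r = 0.786), Fam105a (r = 0.744) and Il7r (r = 0.724), the interleukin-7 receptor gene of lymphocytes.

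Calcrl, the shared receptor subunit, was highest in ECs, at 272 ± 63.8 CPM in the 6 libraries with at least 10 such cells. ECs exceeded FBs in 6 of 6 libraries without overlap, and 65.9% of ECs held a UMI (54.8 to 75.8%). The lymphatic cluster 30 (306 CPM) and the blood vessel cluster 32 (199 CPM) both carried it, with 68.6% of 51 and 61.8% of 34 cells positive. In FBs the level was 77.1 ± 37.2 CPM, in TCs 35.9 ± 32.8 CPM, in DCs and macrophages 19.9 ± 8.84 CPM and in KCs 3.87 ± 1.65 CPM. FBs exceeded TCs in 7 of 8 libraries and TCs exceeded DCs and macrophages in 6 of 8, with overlapping ranges, so the order of these neighbours is not firm. In smooth muscle cells and pericytes 50% of 38 cells were positive (33.4 to 66.6%). Across clusters the genes most like Calcrl were Zfp521 (r = 0.824), a zinc finger gene, Akap12 (r = 0.809), the gene of a scaffold that binds protein kinase A, and Kctd17 (r = 0.799). In lymphoid cells Calcrl was highest in cluster 15, at 76.0 CPM with 23.1% of 208 cells positive (17.5 to 29.4%), although 36.1% of those UMIs came from vehicle 1.

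Ramp2, the partner that makes the pair an adrenomedullin receptor of the vessel wall, was highest in ECs. Its level was 965 ± 266 CPM there, and 94.1% of ECs were positive (86.8 to 98.1%). FBs followed with 219.5 ± 74.8 CPM and KCs with 15.1 ± 9.12 CPM, and each of these steps held in every library with at least 10 cells of both classes, without overlap. TCs held 5 Ramp2 UMIs in 836 cells and DCs and macrophages 4 in 519. Within the ECs, the lymphatic and blood vessel clusters had 1025 and 1048 CPM. The genes most like Ramp2 across clusters were Hspg2 (r = 0.898), the perlecan gene of basement membranes, Jcad (r = 0.883), a gene of endothelial junctions, and Enpp3 (r = 0.882).

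Adm, the adrenomedullin gene, varied more between libraries than between the stromal and epithelial classes. It was 63.3 ± 56.4 CPM in FBs, 52.0 ± 86.4 CPM in ECs and 29.7 ± 17.2 CPM in KCs, and these 3 classes overlapped. In ECs, 20 of the 28 UMIs came from vehicle 2. The leading cluster was KC cluster 12, with Serpinb2, Fosl1 and Krt16 among its leading genes, at 183 CPM and 37.1% of 221 cells positive (30.7 to 43.8%). FB cluster 7, led by Myoc and Mgp, followed with 117 CPM, of which 58.8% of the UMIs came from 1 library. TCs and DCs and macrophages were at 3.13 ± 5.42 and 3.32 ± 6.06 CPM. The genes most like Adm across clusters were Wasl (r = 0.781), Desi2 (r = 0.779) and Prss23 (r = 0.779).

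The make-up of the RAMP transcripts separated the classes. Of all RAMP UMIs in ECs, 571 of 571 were Ramp2. In FBs 83.9% were Ramp2 and 14.7% Ramp1, and Ramp2 made up 76.2 to 94.0% in the single libraries. In TCs 67.3% were Ramp1 (64.9 to 69.7%), 32.3% Ramp3 and 0.327% Ramp2. DCs and macrophages had 85.1% Ramp1 and 14.4% Ramp3, and smooth muscle cells and pericytes 94.3% Ramp1 of 53 UMIs. Among the lymphoid cells cluster 15 had 59.3% Ramp1 (56.0 to 62.4%) and 40.7% Ramp3, cluster 2 had 73.9% Ramp1 (68.0 to 79.2%), and clusters 25 and 22 had 85.0% and 93.9%. By library, cluster 15 held 58, 110, 51 and 27 Ramp1 UMIs in PBMCsec 1 to 4, and 102, 67, 142 and 16 of Ramp3. In vehicle 1 to 4 it held 76, 52, 60 and 116 of Ramp1, and 12, 16, 5 and 18 of Ramp3. Cluster 2 held 18, 25, 28 and 7 of Ramp1 in PBMCsec 1 to 4, and 25, 10, 5 and 7 of Ramp3. In vehicle 1 to 4 its counts were 22, 13, 27 and 47, and 10, 3, 3 and 1. The cluster shares pool these libraries, and the part of treatment in them was not tested. In KCs the make-up followed the cluster: Ramp3 gave 94.1% of 85 RAMP UMIs in cluster 4, led by Gnai1 and with Krt14 among its leading genes, and 95.6% of 45 in cluster 12, the leading cluster of Adm. The genes differ in length and capture, so these shares are compared between cells and do not give the proportions of the proteins.

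**Figure D3:**
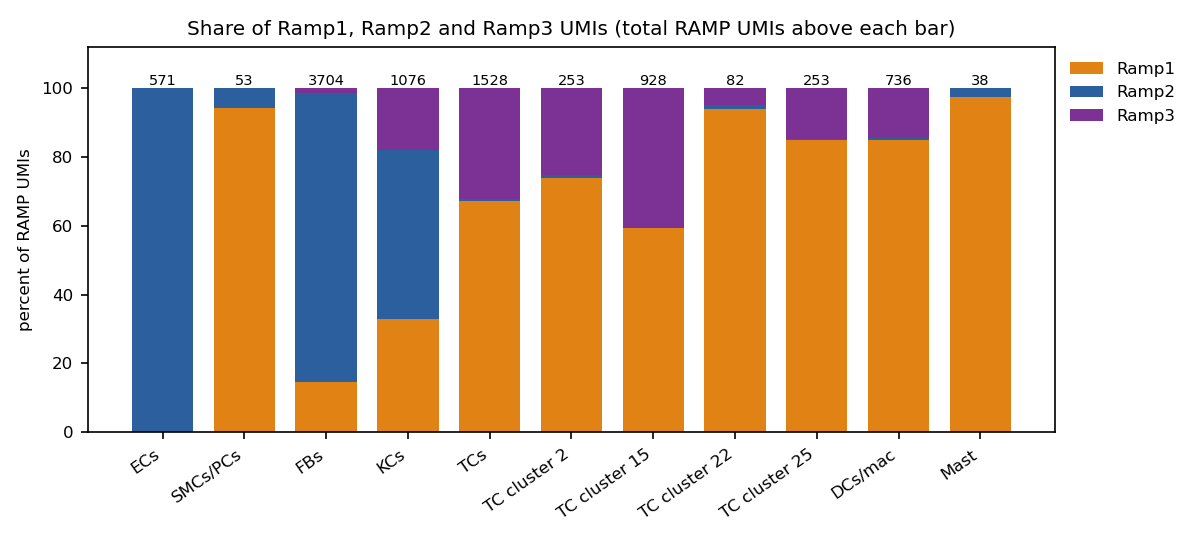
Share of Ramp1, Ramp2 and Ramp3 in the RAMP UMIs of each class and of 4 lymphoid clusters. The y axis is the percent of RAMP UMIs, and the number above each bar is the total of RAMP UMIs behind it, over all libraries. ECs are entirely Ramp2, FBs are 83.9% Ramp2, and TCs and DCs and macrophages are mostly Ramp1, with Ramp3 at 40.7% in cluster 15.

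Receptor pairs were also found within single cells. Of 56 Calcrl-positive ECs, 98.2% held a Ramp2 UMI (90.4 to 99.9%), as did 86.2% of the 29 other ECs. Of 485 Calcrl-positive FBs, 80.6% did (76.8 to 84.0%). In FBs without a Calcrl UMI the share was 57.6%, and Ramp1 ran the other way, at 4.54% of Calcrl-positive and 17.1% of Calcrl-negative FBs. FB clusters differed in both genes: cluster 20 held 0 Calcrl-positive cells in 120, and 72.5% of its cells held Ramp1. Ramp1 shares of Calcrl-positive and Calcrl-negative cells were 1.72% and 2.06% in cluster 0 and 2.26% and 0.952% in cluster 9. They were 13.6% and 22.3% in cluster 8 and 2.04% and 6.63% in cluster 7. The part of the cluster mix in the FB shares was not tested. Of 78 Calcrl-positive TCs, 71.8% held Ramp1 (60.5 to 81.4%), 20.5% Ramp3 and 0 Ramp2. Of the other TCs, 36.3% held Ramp1 and 16.8% Ramp3. Within cluster 15, Ramp1 was held by 85.4% of 48 Calcrl-positive and 58.8% of 160 Calcrl-negative cells, and Ramp3 by 25% and 45%. The part of the cluster mix in the TC shares was not tested. In smooth muscle cells and pericytes, 68.4% of 19 Calcrl-positive cells held Ramp1 (43.4 to 87.4%), as did 52.6% of the 19 others. In DCs and macrophages the share with Ramp1 was 42.6% of 68 Calcrl-positive cells (30.7 to 55.2%) and 44.3% of the 451 others. Calcrl-positive cells were deeper in each of these classes, for example with 9583 against 8250 median UMIs in FBs and 4380.5 against 3307 in TCs.

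The lists of the wider pathway gave the setting of these levels. Among the other peptides and receptors of the family, Ackr3, a scavenger receptor of adrenomedullin, was highest in FBs (407 CPM), and Crcp, a gene named for a CGRP receptor component, was even, at 17.1 to 35.1 CPM in TCs, DCs and macrophages, ECs, mural cells, FBs and KCs. Calcb, the gene of beta-CGRP, had 80 UMIs and reached 3.02 CPM in KCs. Of the genes of peptide maturation and breakdown, Ece1, the endothelin-converting enzyme that also degrades CGRP, was highest in ECs (789.6 CPM), and Pam, the enzyme that amidates both peptides, in FBs (270.2 CPM). Pam was at 5.65 CPM in TCs and at 2.11 CPM in cluster 15. Pcsk1 was nearly confined to TCs, at 53.5 CPM there and at most 0.309 CPM in each of the other named classes. Of the signalling genes, Gnas, which encodes the Gs alpha subunit, was highest in ECs (2017 CPM) and Prkar1a, a protein kinase A regulatory subunit, in smooth muscle cells and pericytes (371 CPM). Of the cAMP response genes, which also respond to other stimuli and to tissue dissociation, Dusp1 and Fosb had the most UMIs. By class, Dusp1 was highest in neutrophils (4811 CPM) and Fosb in smooth muscle cells and pericytes (798 CPM). In cluster 15 Dusp1 and Fosb were at 1019.6 and 684 CPM, below those highest values but above TCs as a whole (529 and 366 CPM). FBs were at 584 and 437 CPM and KCs at 877 and 378 CPM. Other sensory neuropeptides and their receptors were scarce: Npy1r, a neuropeptide Y receptor gene, had 174 UMIs and was at 236 CPM in the few smooth muscle cells and pericytes and 9.04 CPM in FBs, and Vipr1, a receptor gene for vasoactive intestinal peptide, had 117, highest in DCs and macrophages at 19.3 CPM.

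Treatment was then compared. In the lymphoid cells Calca and Ramp3 had been picked out because they differed between the treatments, so their values there are a description and no p-value is given. Calca in TCs was 244, 107, 234 and 133 CPM in PBMCsec 1 to 4. It was 50.8, 3.08, 43.9 and 121 CPM in vehicle 1 to 4. The means were 179 ± 69.8 and 54.8 ± 49.1 CPM (n = 4 each), and the groups overlapped, since vehicle 4 lay above PBMCsec 2. Libraries with the same number deviated together in TCs, and within these pairs Calca was higher after PBMCsec in 4 of 4, although by little in pair 4. The labels do not say what the number stands for. How many of all genes were higher in 4 of 4 pairs was not counted. The fitted log2 fold change of PBMCsec over vehicle was 1.76 (SE 0.50). Across all 4760 genes that could be tested in TCs, 0 (0%) passed an adjusted p of 0.05 in edgeR, 168 (3.53%) passed an unadjusted p of 0.05, 3 passed by DESeq2, and 25 (0.525%) reached a log2 fold change of 1 towards PBMCsec. Every PBMCsec library lay above every vehicle library for 55 genes (1.16%).

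The number of cells moved with the level. Calca-positive cells made up 9.43, 7.22, 10.2 and 14.3% of TCs in PBMCsec 1 to 4 and 3.57, 1.85, 4.29 and 7.29% in vehicle 1 to 4. The means were 10.3 ± 2.95% and 4.25 ± 2.27%, and again vehicle 4 reached the lowest PBMCsec library. Single cells weighed heavily in some libraries. In PBMCsec 2 the highest cell gave 33 of 60 Calca UMIs, and in vehicle 1 it gave 14 of 15. Median depths of TCs were alike between the groups, at 4043 ± 1075 and 3984 ± 1553 UMIs.

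Ramp3 in TCs was 244, 158, 263 and 77.7 CPM in PBMCsec 1 to 4. It was 74.5, 80.1, 32.9 and 62.2 CPM in vehicle 1 to 4. The means were 186 ± 85.2 and 62.4 ± 21.1 CPM, and the groups touched because vehicle 2 lay slightly above PBMCsec 4. Within same-numbered pairs Ramp3 was higher after PBMCsec in 4 of 4. The log2 fold change was 1.64 (SE 0.36). Ramp1 ran the other way, at 199.7 to 339.8 CPM after PBMCsec and 231 to 557 CPM after vehicle. The groups overlapped, Ramp1 was lower after PBMCsec in 3 of 4 pairs, and the fitted difference was -0.60 on the log2 scale (SE 0.27). Calcrl had a log2 fold change of -0.71 (SE 0.52) that rested on vehicle 1, where 19 of 56 TCs lay in cluster 15 and gave 26 of the 34 Calcrl UMIs. Without this library it was 0.27, and Calcrl was higher after PBMCsec in 3 of 4 pairs. Ramp2 and Adm were too low in TCs to be fitted.

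**Figure D4:**
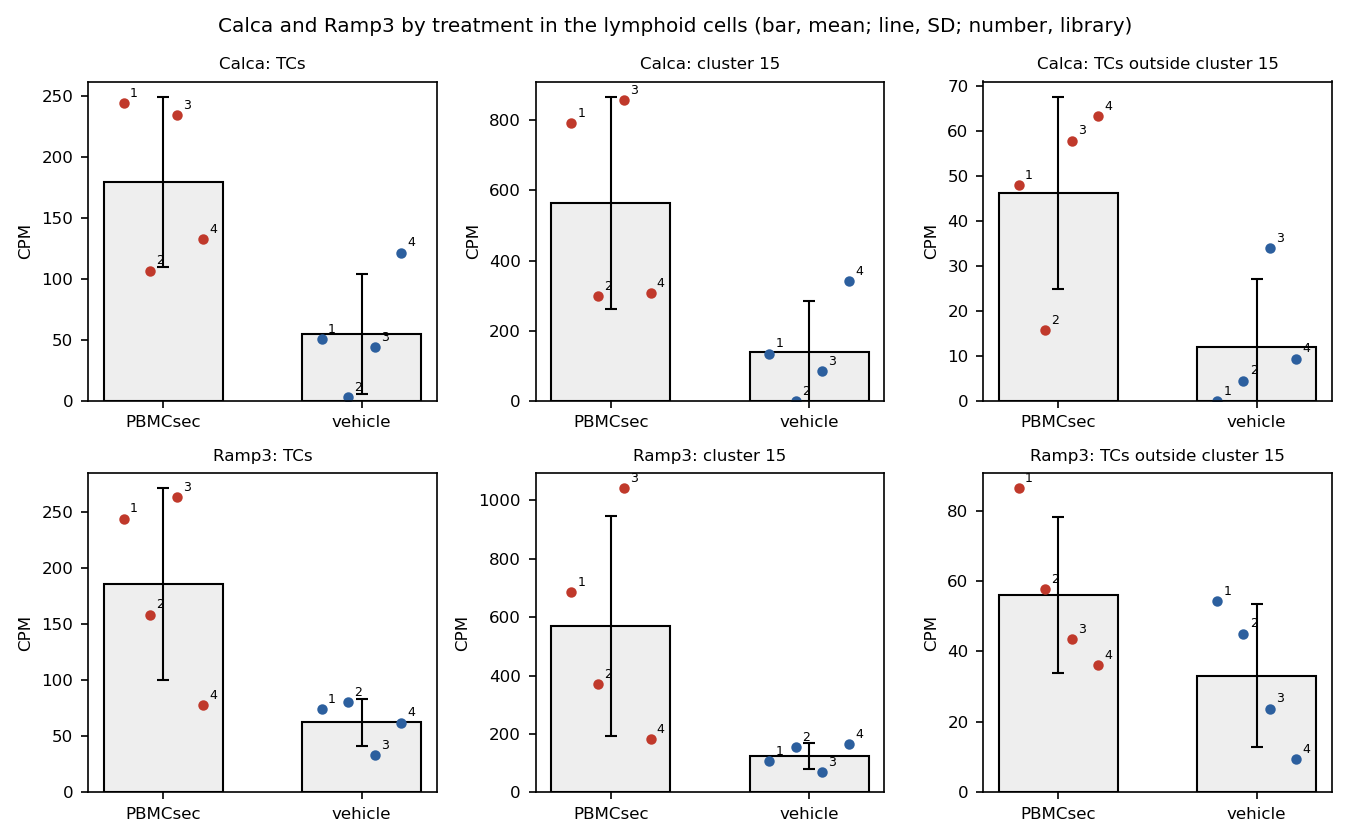
Calca (top) and Ramp3 (bottom) in CPM by treatment, in all lymphoid cells, in cluster 15 and in the lymphoid cells outside it. Each point is 1 library with its number, the bar is the mean and the line the SD of 4 libraries, and the y axes start at 0 and differ. In all lymphoid cells vehicle 4 (121 CPM) overlaps the PBMCsec range for Calca (107 to 244 CPM). In cluster 15 Ramp3 runs from 182 to 1041 CPM after PBMCsec and from 70.7 to 166 CPM after vehicle.

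Cluster 15 carried most of both differences in amount. Calca in this cluster was 792, 298, 858 and 307 CPM in PBMCsec 1 to 4 and 135, 0, 84.8 and 341 CPM in vehicle 1 to 4, from between 9 and 45 cells a library. Vehicle 4 lay above the lowest PBMCsec libraries, and PBMCsec was the higher in 3 of 4 pairs. Ramp3 was 685, 370.3, 1041 and 182 CPM after PBMCsec, and 108, 156, 70.7 and 166 CPM after vehicle, without overlap. With the Sandybridge partition the Ramp3 groups did overlap in the leading cluster, at 197 to 1200.0 CPM and 96.3 to 208 CPM. Outside cluster 15 the Calca level was far lower and the groups overlapped, at 15.7 to 63.3 CPM after PBMCsec and 0 to 34.0 CPM after vehicle, from 68 and 13 UMIs. In the Sandybridge partition these groups were apart, at 35.9 to 61.5 CPM and 0 to 34.5 CPM. Whether the groups touched thus changed with the border of the cluster. The share of all genes without overlap was counted for TCs as a whole only, so separations within these partitions cannot be weighed. Ramp3 outside cluster 15 overlapped, at 36.2 to 86.3 CPM and 9.39 to 54.3 CPM. Ramp1 in cluster 15 was 307 to 608 CPM after PBMCsec and 506 to 1070.0 CPM after vehicle, with means of 419 ± 131 and 777 ± 240.2 CPM, and the groups overlapped.

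Over all kept cells, Calca was 27.7, 28.0, 11.9 and 5.90 CPM in PBMCsec 1 to 4 and 13.6, 0.581, 1.42 and 5.48 CPM in vehicle 1 to 4. These values also move with the share of TCs, which ran from 8.44% of kept cells in vehicle 3 to 37.1% in vehicle 1. Its part in the difference was not tested.

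Outside the lymphoid cells the receptor genes were tested, since it was the lymphoid treatment difference that had picked out Calca and Ramp3. Earlier results of these data were known when the genes were chosen, and the same 8 libraries supply every class. The tests are therefore not independent of that choice. None of the fitted genes was called different between PBMCsec and vehicle in edgeR's quasi-likelihood test. In ECs, 0 of 2 fitted genes were called, where 0.0673% of 1486 genes were. Calcrl in ECs was 336, 324 and 207 CPM in PBMCsec 1, 3 and 4 and 329, 209.5 and 226 CPM in vehicle 2, 3 and 4. The log2 fold change was 0.19 (SE 0.35, edgeR adjusted p = 0.970). Ramp2 in ECs was 762, 708 and 1249.8 CPM after PBMCsec and 1214, 703 and 1151 CPM after vehicle. The fitted difference was -0.14 on the log2 scale (SE 0.33, edgeR adjusted p = 0.978). Each EC value rests on 10 to 16 cells.

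In FBs, 0 of 4 fitted genes were called and 0% of 9563 genes. Ramp2 was 183, 302, 223 and 296 CPM in PBMCsec 1 to 4 and 189, 80.8, 196 and 286 CPM in vehicle 1 to 4, and the log2 fold change was 0.45 (SE 0.31). Calcrl was 38.8 to 91.5 CPM after PBMCsec and 61.5 to 157 CPM after vehicle, and the log2 fold change was -0.52 (SE 0.35). Both groups overlapped for each gene. Adm had a log2 fold change of 0.64 (SE 0.69), which rested on PBMCsec 1 at 178 CPM, and without this library it was -0.46. Ramp1 was at -0.26 (SE 0.43). The edgeR adjusted p was 0.9997 for each of the 4 genes.

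In DCs and macrophages, 0 of 2 fitted genes were called and 0% of 5591 genes. Ramp1 was 103, 65.0, 188 and 155 CPM in PBMCsec 1 to 4 and 175, 110.4, 197 and 226 CPM in vehicle 1 to 4. Its log2 fold change of -0.50 (SE 0.31, edgeR adjusted p = 0.9997) lay within the overlap of the groups. Calcrl was at 0.20 (SE 0.42). In KCs, 0 of 5 fitted genes were called and 0% of 10729 genes, and the log2 fold changes were 0.65 for Calcrl (SE 0.44), 0.20 for Ramp1 (SE 0.43), -0.19 for Ramp2 (SE 0.43), 0.08 for Ramp3 (SE 0.38) and -0.07 for Adm (SE 0.50). At an unadjusted p of 0.05, edgeR called 0 of these genes in any of the 4 classes, where 5.25%, 1.93%, 4.69% and 1.55% of all genes tested in ECs, FBs, myeloid cells and KCs were past it, and DESeq2 also called 0 in each class. Calca was too low outside the lymphoid cells to be fitted. Smooth muscle cells and pericytes reached 10 cells in 1 library and were not compared.

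**Figure D5:**
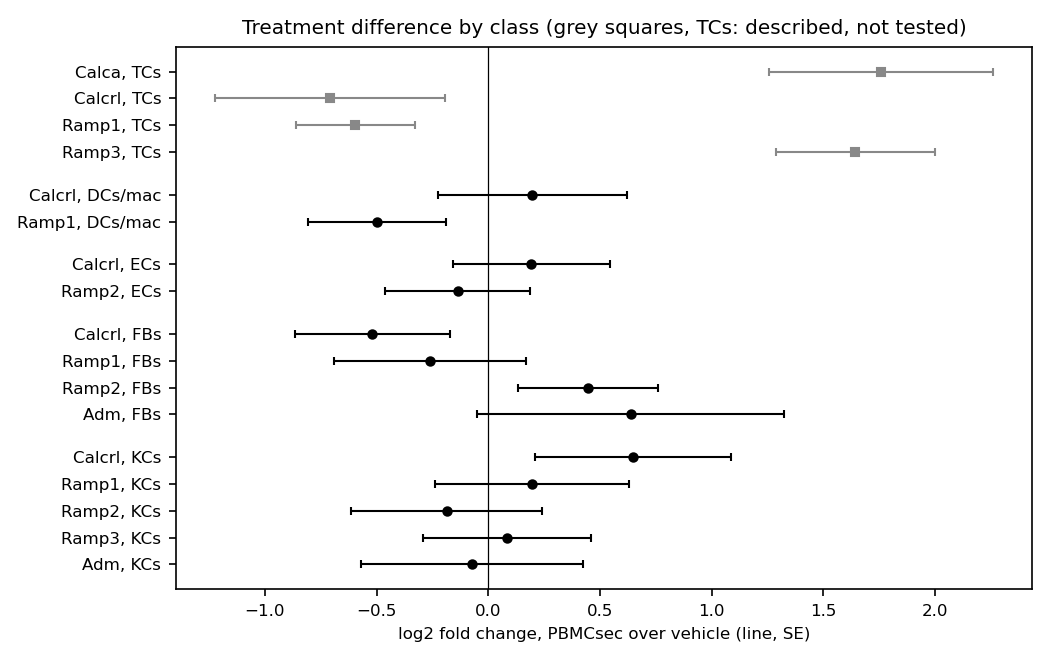
Fitted log2 fold changes of PBMCsec over vehicle with their SE, for each gene and class that could be fitted. Black circles are classes with a test, grey squares are lymphoid cells, described without one. The lymphoid values of Calca (1.76) and Ramp3 (1.64) are the farthest from 0, and the values of the tested classes lie between -0.52 and 0.65.

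No gene of the pathway lists was called in any tested class. These lists hold 55 genes, of which FBs allowed 35 to be fitted, KCs 32, DCs and macrophages 26 and ECs 8, and both edgeR and DESeq2 called 0 of them. At an unadjusted p of 0.05 the edgeR counts were 0, 1, 3 and 1 in the same order. The 12 cAMP response genes fitted in TCs were split evenly, 6 higher and 6 lower after PBMCsec, with a median log2 fold change of 0.00 beside -0.01 over all genes. In FBs the 13 cAMP response genes had 6 higher and 7 lower (median -0.03, all genes 0.00), and in DCs and macrophages 2 of 11 were higher (median -0.30, all genes -0.02). In ECs all 3 that could be fitted were higher (median 0.84, all genes -0.03). The genes of peptide maturation in TCs, 4 fitted, were all lower (median -0.47). Among them Pcsk1, the gene whose pattern over clusters was nearest to Calca, was at -1.44 (SE 0.44).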

How the data were processed

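The authors deposited gene by cell tables of UMI counts, 1 per library, made with Cell Ranger 3.0.2 and mm10 per the submitters' processing notes. The counts are raw whole numbers per gene, and their normalization and clustering by the study were not used. Single-cell RNA sequencing (10x Genomics 3′ chemistry) was performed on 8 libraries of dissociated dorsal skin, sorted for live cells. The labels gave the groups, 4 PBMCsec and 4 vehicle libraries.

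Limits of the study were applied to each barcode (500 to 4000 genes, no more than 20000 UMIs and no more than 5% of counts from mitochondrial genes), and 16900 of 26231 barcodes exceeded the mitochondrial limit. Cells were integrated and clustered with Seurat 5.3.0 in R 4.3.3 (2000 variable genes, 30 dimensions, resolution 1), with the 61 genes of the members and lists kept out of the variable genes. A name required 3 or more listed markers, each present in 25% or more of the cluster and 2-fold above the median of the clusters. A cluster stayed unnamed where more of its leading genes were markers of another class. These rules were chosen once the clusters were known. Scrublet called 22 cells (0.358%), which is too few to have worked, and no doublets were removed. UMIs were summed per library and class. Libraries with at least 10 cells of a class entered the quasi-likelihood test of edgeR 4.0.16, with Benjamini-Hochberg adjustment over all genes tested. A prior count of 2 entered log2 CPM values, such as those behind the correlations of same-numbered libraries, and not the test. Filters for low counts were those of edgeR.

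The members and lists were chosen with earlier results of these data known, the lymphoid treatment difference among them, and that difference carries no test. Genes named besides the members are the 2 with most UMIs of each list role, list genes past the threshold, and the 3 genes nearest to each member across clusters among genes that reach 50 CPM. Genes named outside this rule are leading genes of clusters, Calcb, and the neuron list, of which 1 gene is not reported here, chosen after their values were seen. Intervals are exact binomial at 95% and, like the limits from 3 counts, cover counting error only. Library numbers are shared between groups. In TCs same-numbered libraries deviated together (correlations 0.34, 0.18, 0.13 and 0.41), and in the other classes not in every pair. Alternatives were DESeq2 1.42.0 and its size factors, no filter on low counts, a block for the library number, each library left out, libraries 1 and 2 or 3 and 4 alone, a 20% mitochondrial limit, classes from marker UMIs alone, doublet scores, and thinning to 1000 UMIs. Other arithmetic kernels and another seed for the clustering were added after the data had been seen, because the border of cluster 15 moved with rounding. The edgeR step was run on simulated data with the same spread between libraries for all genes. Its outcome is not given here, and the power to find differences of the size fitted is not known.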

Additional observations from a re-analysis of the deposited data

Results flagged for a closer look

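Among 50 sets of 4 libraries that were checked, each for 1 gene and 1 class or lymphoid group, 3 had a library whose gap to the nearest of the others exceeded Dixon's 95% limit. Chance flags about 1 in 20 such sets. Calcrl in TCs was 115 CPM in vehicle 1, and the other vehicle libraries lay between 16.4 and 31.1 CPM. Of the 34 Calcrl UMIs in TCs of vehicle 1, 26 lay in its 19 cells of cluster 15.

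Ramp3 in FBs was 30.8 CPM in vehicle 1, from 8 UMIs in 31 cells, beside 0 to 5.05 CPM in the other vehicle libraries. Adm in FBs was 178 CPM in PBMCsec 1, beside 26.7 to 39.3 CPM in the other PBMCsec libraries.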

How the results depend on the processing

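In TCs, described without a test, Calca and Ramp3 stayed higher after PBMCsec under each alternative that was run: with each library left out the log2 fold changes were 1.37 to 2.54 and 1.42 to 1.88, and under the other settings 1.20 to 2.83 and 0.87 to 1.92. The lowest Ramp3 value, 0.87, came from leaving out cluster 15, and Calca could not be fitted without it. Cluster 15 was the only lymphoid cluster with more markers of the ILC2 list (8 of 8) than of any single T cell list (at most 7). Its alpha-beta T cell list was also complete (7 of 7), so this count follows list length and cannot tell ILC2 from T cells. For Ramp1 they were -0.80 to -0.34 with a library left out, -0.13 in libraries 1 and 2 alone and -0.99 in libraries 3 and 4 alone, the ends of its range over the other settings. For Calcrl they ran from -1.01 to 0.27 with a library left out, the last without vehicle 1, and from -1.23 in libraries 1 and 2 alone to 0.16 in libraries 3 and 4 alone. With a replicate block for the library number, which pairs the libraries in TCs, Calca was 1.90 and Ramp3 1.58. In the other classes not every pair correlated (DCs and macrophages 0.085 to 0.32, ECs 0.056 and 0.17, FBs -0.008 to 0.24, KCs -0.013 to 0.48). There the block called no member and turned the sign of Ramp2 in ECs to 0.10.

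None of the member tests outside TCs passed the adjusted threshold under any alternative run, but small differences changed sign. With 1 library left out the ranges were -0.60 to 0.12 for Ramp1 and -0.46 to 1.19 for Adm in FBs, -0.020 to 0.39 for Calcrl in DCs and macrophages, and -0.45 to 0.018 for Ramp2 in ECs. In KCs they were -0.20 to 0.57 for Ramp1, -0.62 to 0.042 for Ramp2, -0.28 to 0.32 for Ramp3 and -0.65 to 0.27 for Adm. The 20% mitochondrial limit gave -0.13 for Calcrl and -0.23 for Ramp3 in KCs. Libraries 3 and 4 alone gave -0.26 for Ramp1 in KCs and 0.12 for Ramp2 in ECs, and libraries 1 and 2 alone gave 0.15 for Adm in KCs. The causes were not tested. Without the filter on low counts edgeR called 8 lower and 38 higher genes in TCs, 23 and 85 in DCs and macrophages, 3 and 56 in ECs (0 and 1 as reported), and 0 in FBs and KCs. Of the pathway genes in ECs, 2 (Fosb and Nr4a1) were called without the filter on low counts, and 0 to 1 with a library left out (Fosb, without PBMCsec 4).

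With the clustering kernels Sandybridge and Nehalem, added after the data had been seen, the leading cluster held 74.4 and 59.6% of the Calca UMIs (76.6% as reported) and 44.0 and 38.4% of the Ramp3 UMIs (44.7%). Shares of cells depend on depth. Thinned to 1000 UMIs, they fell to 23.8% for Calcrl and 51.3% for Ramp2 in ECs, 19.7% for Ramp1 and 8.33% for Ramp3 in TCs, and 4.11% for Adm in FBs. CPM levels moved by less than 1 SD in 18 of 18 comparisons. ECs in libraries 1 and 2 alone and all alternatives for smooth muscle cells and pericytes were not run, because too few libraries held 10 cells.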
